A study of Mus musculus with 25 samples.

Results

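The Dlx and Msx homeobox families were followed through 5 embryonic mouse mesenchymes. The members were taken by gene symbol as Dlx1 to Dlx6, Msx1 and Msx2, 8 of the 35880 genes of the count matrix, and all 8 passed the filter on low counts that left 17657 genes for testing. The tissues were the fat pad precursor of embryonic stage E16.5 (E16.5 FP), the mammary mesenchyme of E16.5 (E16.5 MM) and of E13.5 (E13.5 MM), the E13.5 ventral skin mesenchyme taken away from the mammary glands (E13.5 VM) and the submandibular salivary gland mesenchyme at E13.5 (E13.5 SM). Each tissue had 5 samples from C57Bl/6JOlaHsd mice carrying no transgene named in the labels, and each sample pooled tissue of 2 to 3 embryos of 1 litter, with 3 litters in all. E16.5 embryos were labelled female and the E13.5 labels give no sex, so stage and sex of the pool cannot be told apart. Which samples share a litter was not given, and the p-values below treat the 5 samples of a tissue as separate, so they may be too small. The mesenchymes were separated from their epithelium by enzyme treatment and dissection, so each is a mixture of the cells left behind, and in such bulk RNA fewer cells of a type and less RNA per cell cannot be told apart.

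Dlx genes, the vertebrate relatives of Drosophila Distal-less, encode homeodomain transcription factors and lie in linked pairs that face each other. In the embryonic face they are expressed in nested domains of neural crest mesenchyme, where Dlx1 and Dlx2 cover the whole pharyngeal arch, Dlx5 and Dlx6 its lower part and Dlx3 and Dlx4 the part farthest from the trunk. Dlx genes also act in the forebrain, where Dlx1, Dlx2, Dlx5 and Dlx6 are needed for GABAergic interneurons, and Dlx3 is known from epidermis, hair follicle and placenta. Msx1 and Msx2 encode homeodomain factors that mostly repress transcription and are induced by bone morphogenetic proteins (BMPs), and in the mammary region mesenchymal Msx2 is known to act downstream of parathyroid hormone-related protein and BMP4 in suppressing hair follicles around the nipple. Salivary mesenchyme comes mainly from cranial neural crest of the first pharyngeal arch, whereas the mesenchyme of mammary gland and ventral skin comes from the trunk.

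On GRCm38 (GENCODE M21), Dlx1 (ENSMUSG00000041911, chr2:71528113-71533981, plus strand) and Dlx2 (ENSMUSG00000023391, chr2:71543408-71546754, minus strand) are separated by 9426 bases. Dlx3 (ENSMUSG00000001510, chr11:95120119-95125296, plus strand) and Dlx4 (ENSMUSG00000020871, chr11:95140447-95146263, minus strand) have 15150 bases between them. Dlx6 (ENSMUSG00000029754, chr6:6863334-6868568, plus strand) and Dlx5 (ENSMUSG00000029755, chr6:6877805-6882085, minus strand) have 9236 bases between them. Msx1 (ENSMUSG00000048450) lies alone at chr5:37820485-37824583 and Msx2 (ENSMUSG00000021469) at chr13:53466884-53473074, both on the minus strand. The annotation places Dlx1as, Dlx4os, Dlx6os1 and Dlx6os2 on the opposite strand over Dlx1, Dlx4 and Dlx6. These genes were not analysed here, and since the sources used here do not state whether strand was used in counting, the values of Dlx1, Dlx4 and Dlx6 may include reads of these antisense genes.

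RefSeq promoter sequences were found for 4 of the 8 members, namely Dlx1, Dlx2, Msx1 and Msx2, and the 250 bases before the start were searched for TAATTA, a core that homeodomains bind, for CCAAT, the box bound by NF-Y, and for TATAAA, the TATA box, each on both strands and none overlapping another. Over 32851 promoters, 4.84% held TAATTA, 33.8% CCAAT and 12.4% TATAAA in this window. Dlx2 and Msx1 are shown because Dlx2 was high in a single tissue while Msx1 was measured in all 5, and because their windows hold no exon base of the gene in GENCODE. Capitals mark CCAAT or its reverse complement ATTGG, and both windows (GRCm38.p6) are written on the gene's own strand.
Dlx2, chr2:71546755-71547004, minus strand: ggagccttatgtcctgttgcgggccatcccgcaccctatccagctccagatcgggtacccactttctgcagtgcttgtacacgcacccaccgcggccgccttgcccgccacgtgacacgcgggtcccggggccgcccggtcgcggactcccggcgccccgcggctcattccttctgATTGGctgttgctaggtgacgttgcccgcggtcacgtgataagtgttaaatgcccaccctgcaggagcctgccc
Msx1, chr5:37824586-37824835, minus strand: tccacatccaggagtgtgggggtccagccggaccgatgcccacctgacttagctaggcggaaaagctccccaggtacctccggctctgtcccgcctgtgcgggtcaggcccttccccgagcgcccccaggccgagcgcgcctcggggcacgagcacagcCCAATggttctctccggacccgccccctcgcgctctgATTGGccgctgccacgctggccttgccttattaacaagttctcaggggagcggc

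Dlx2 held 1 CCAAT box, beginning 74 bases before the start, and Msx1 held 2, beginning 91 and 54 bases before it. Neither window had TAATTA or TATAAA. The G and C content was 66.4% for Dlx2 and 68.0% for Msx1, against a median of 52.4% over all promoters. The windows of Dlx1 and Msx2 overlap exons of these genes in GENCODE and are not printed. That of Dlx1 held none of the 3 motifs, and that of Msx2 held 1 TAATTA and 1 CCAAT. These matches describe the letters only.

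Libraries held 20678150 to 34448304 counts, with a median of 26370369, and no library was identical to another. Values below are normalized counts, that is, counts scaled by trimmed mean of M values (TMM) factors to a common library of 26544648 counts, so that a value of 1 stands for about 1 read in a library of average depth. Fold changes, their standard errors (SE) and adjusted p-values come from edgeR's quasi-likelihood test over all 25 samples, adjusted by Benjamini-Hochberg over the 17657 genes, and a gene was called when adjusted p was under 0.05, the log2 fold change was at least 0.58 in size and the mean normalized count was above 50 in the higher tissue. The 10 general mesenchyme genes of a marker list, such as Pdgfra, Col1a1 and Lum, summed to between 14100 and 50300 CPM (counts scaled to the same total in each library) in every sample. Other cell types were also present in the marker lists, most of all skeletal muscle in E16.5 FP (2270 to 22300 summed CPM, against 834 to 3650 in E16.5 MM).

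Dlx1, Dlx2, Dlx5 and Dlx6 were highest in E13.5 SM, Dlx3 and Dlx4 in E13.5 MM, and Msx1 and Msx2 in E16.5 MM. When tissues were ordered by mean level for each gene and neighbours compared in the same model, 13 of 32 neighbour pairs differed at adjusted p under 0.05. For 7 of the 8 genes the highest tissue stood apart from the next. The exception was Msx1, whose means of 84.9 ± 23.0 (E16.5 MM) and 77.5 ± 38.8 (E13.5 VM, SD, n = 5 each) were not separated (edgeR quasi-likelihood test, adjusted p = 0.697). Dlx4 stood apart by little (same test, adjusted p = 0.0357), and no longer without any one of several libraries named below.

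**Figure D1:**
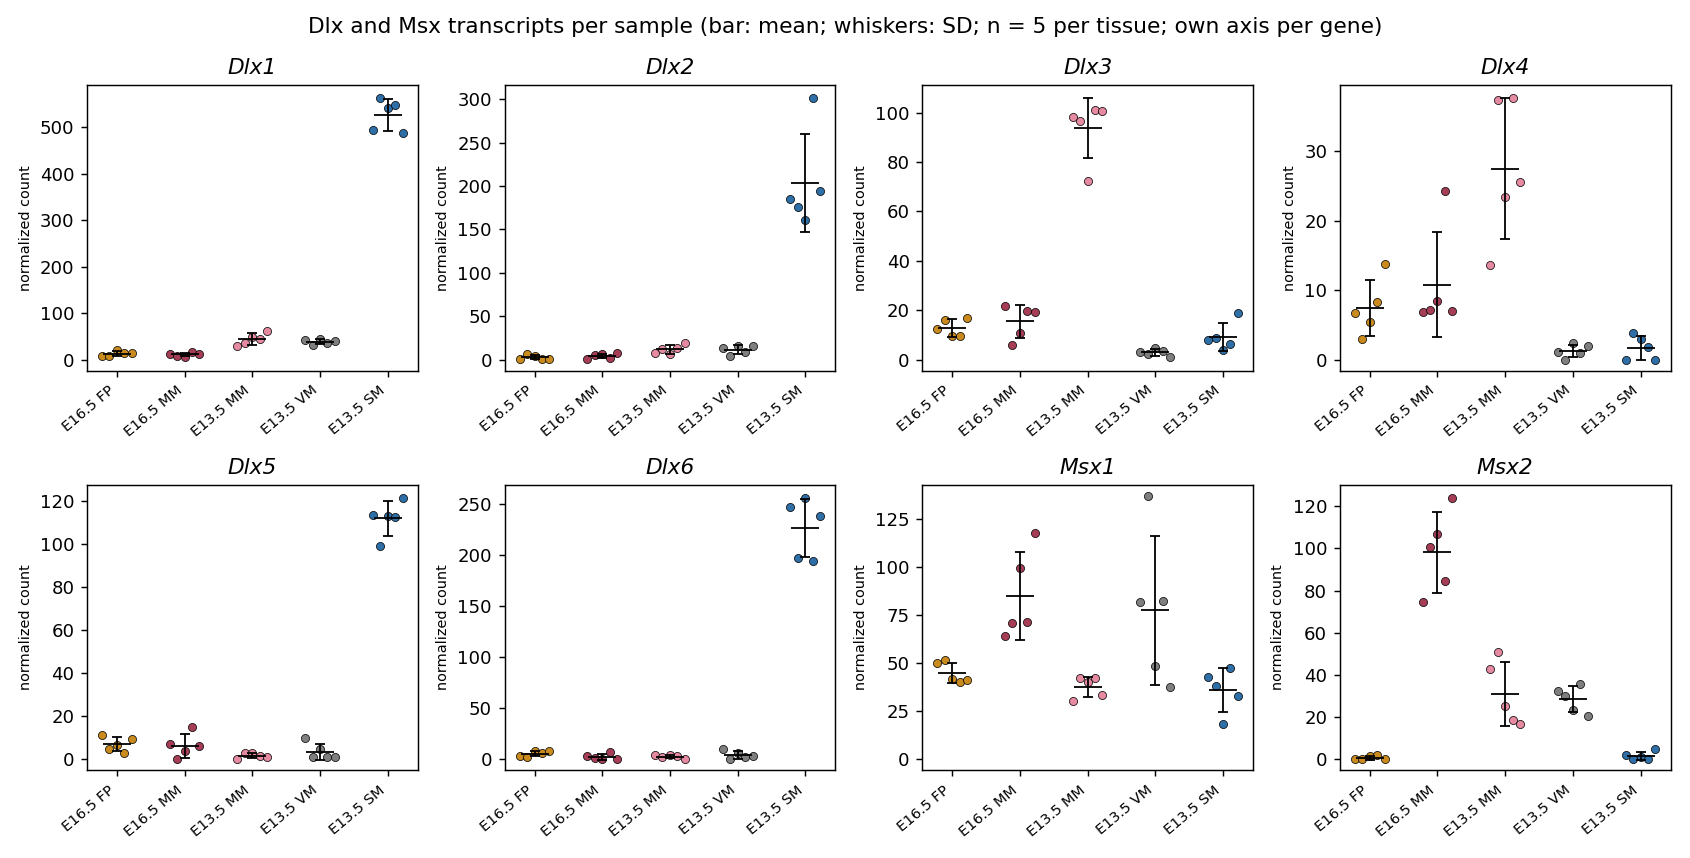
Normalized count (vertical axis, linear, own scale for each gene) of the 8 genes in every sample of E16.5 FP, E16.5 MM, E13.5 MM, E13.5 VM and E13.5 SM, with 1 point per sample, a bar for the mean and whiskers for the SD of 5 samples. Dlx1, Dlx2, Dlx5 and Dlx6 stand high in E13.5 SM only, Dlx3 in E13.5 MM only, and Msx2 is highest in E16.5 MM and close to 0 in E16.5 FP and E13.5 SM.

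Levels were also scaled per kilobase of exon, with the exons of all annotated transcripts of a gene merged. This length can exceed that of the transcript expressed, so levels of different genes compare only roughly. For Dlx1 it was 5396 bases of a gene span of 5869, against 2375 for Dlx6, so Dlx1 may be understated. On this scale the 8 genes summed to 30.7 normalized counts per kb in E16.5 FP. E16.5 MM had a sum of 73.9, E13.5 MM of 80.1, E13.5 VM of 49.7 and E13.5 SM of 329.7 per kb. The make-up of that sum differed from tissue to tissue. In E13.5 SM, Dlx1 took 29.6%, Dlx6 28.9%, Dlx2 21.6% and Dlx5 15.0% of it, and the other 4 genes were a small rest. In E13.5 MM, Dlx3 took 44.9%, in E16.5 MM, Msx2 took 40.5% and Msx1 37.1%, and in E13.5 VM and E16.5 FP, Msx1 took 50.4% and 47.3%.

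**Figure D2:**
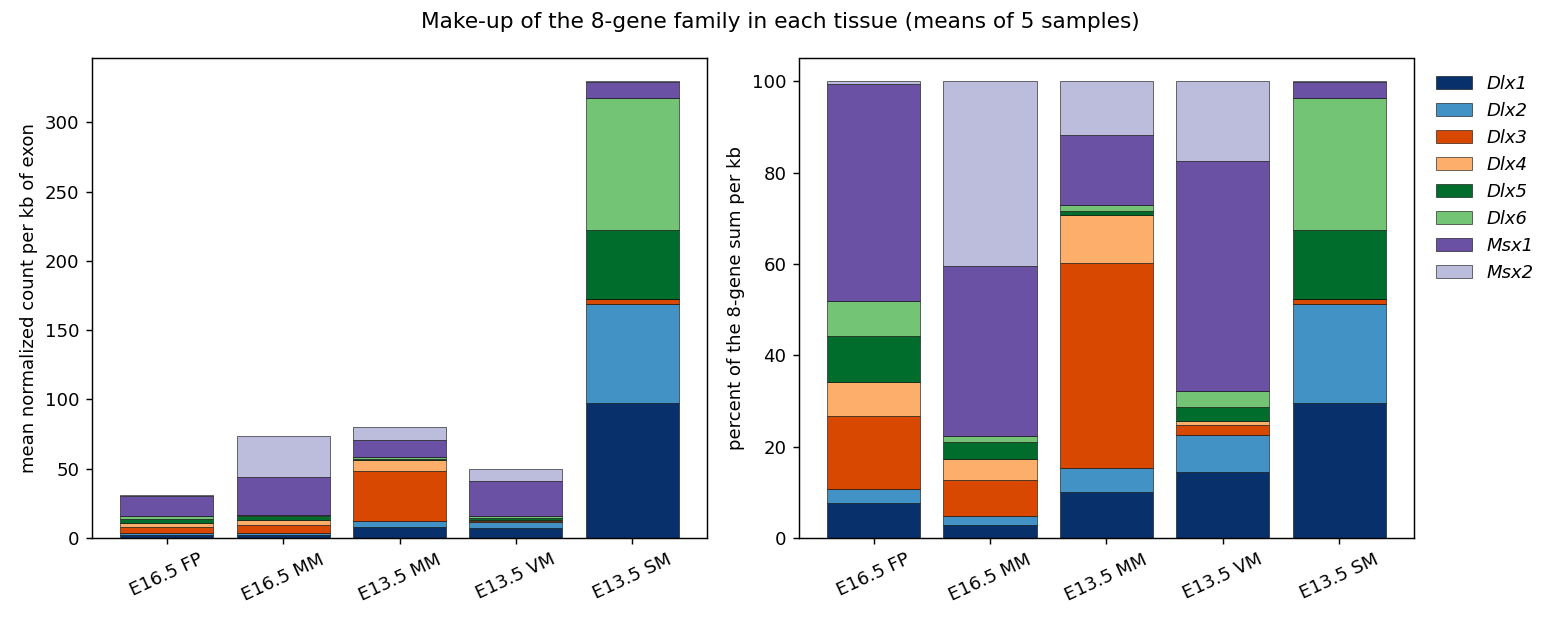
Left, mean normalized count per kb of exon (exons of all annotated transcripts merged) of the 8 genes, stacked, in each tissue (means of 5 samples). Right, the same as a percent of the 8-gene sum. E13.5 SM has the tallest bar, 329.7 per kb, made up mostly of Dlx1, Dlx6, Dlx2 and Dlx5, while Dlx3 is the largest share of the E13.5 MM bar (44.9%) and Msx1 and Msx2 fill most of the E16.5 MM bar.

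To ask how the families differ between mammary and salivary mesenchyme of one stage, E13.5 MM was set against E13.5 SM. Of the 8 genes, 4 were called lower and 1 higher in E13.5 MM, in a comparison in which 30.1% of all tested genes were called, 14.5% higher and 15.6% lower. The 4 lower genes were Dlx1, Dlx2, Dlx5 and Dlx6, and the higher one was Dlx3. The median log2 fold change of the 8 genes was -1.76, and that of all tested genes was 0.03.

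Dlx1 and Dlx2, the pair that spans the whole arch, were the more abundant pair in salivary mesenchyme. Dlx1 had 29.4, 35.4, 47.8, 43.1 and 61.9 normalized counts in the E13.5 MM samples, against 494, 563, 540.3, 548 and 486 in the E13.5 SM samples. The E13.5 SM samples lay close together and far above all others (Dlx1 log2 fold change -3.59, SE 0.22, adjusted p = 3.339e-13). Dlx2 had 7.92, 12.4, 5.86, 13.3 and 19.5 normalized counts in E13.5 MM, against 185, 175, 161, 302 and 194 in E13.5 SM, of which replicate 4 stood above the other 4. Its log2 fold change was -4.08 (SE 0.39, adjusted p = 1.725e-09).

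Dlx5 and Dlx6, which act in the lower jaw domain, were nearly silent outside E13.5 SM. Dlx6 had 4.52, 1.91, 3.90, 3.13 and 0 normalized counts in E13.5 MM, against 247, 197.5, 256, 194 and 239 in E13.5 SM. Its log2 fold change of -6.36 (SE 0.60, adjusted p = 1.593e-09) rests on 14 counts in all E13.5 MM libraries together and 1203 in those of E13.5 SM. Dlx5 had 0, 2.87, 2.93, 1.57 and 0.884 normalized counts in E13.5 MM, against 113, 98.7, 113, 112.5 and 121 in E13.5 SM (log2 fold change -5.96, SE 0.64, adjusted p = 1.488e-08). Together with Dlx3, Dlx4 and Msx2, these 4 had no overlap between the E13.5 MM and E13.5 SM samples, 7 of 8 genes where 46.7% of all genes had none.

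The same 4 genes were called lower than in E13.5 SM in each of the other 3 tissues, which were all compared with the same 5 E13.5 SM samples. In E13.5 VM, 4 of 8 genes were called lower and 1 higher, where 30.2% of all tested genes were called, 14.7% higher and 15.6% lower, and the log2 fold changes were -3.76 for Dlx1, -4.12 for Dlx2, -4.99 for Dlx5 and -5.75 for Dlx6. In E16.5 MM, 4 were called lower and 2 higher, where 35.1% of all genes were called, 18.5% higher and 16.6% lower, with -5.58 for Dlx1, -5.52 for Dlx2, -4.11 for Dlx5 and -6.56 for Dlx6. In E16.5 FP, 4 were called lower and none higher, where 39.5% of all genes were called, 20.2% higher and 19.3% lower, with -5.37 for Dlx1, -6.21 for Dlx2, -3.96 for Dlx5 and -5.32 for Dlx6. The adjusted p-values of these 12 tests (edgeR quasi-likelihood) were 7.015e-07 or lower. The median log2 fold change of the 8 genes was -2.67 in E13.5 VM, -1.67 in E16.5 MM and -2.51 in E16.5 FP.

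Below E13.5 SM the order of tissues differed between the linked pairs. For Dlx1, E13.5 MM at 43.5 ± 12.5 and E13.5 VM at 38.7 ± 4.57 (SD, n = 5 each) were not separated, while E13.5 VM was above E16.5 FP (log2 difference 1.61, SE 0.24, adjusted p = 3.814e-06), which in turn was not separated from E16.5 MM (12.8 ± 5.49 and 10.9 ± 3.91). Dlx2 was likewise higher in both E13.5 skin tissues than in both E16.5 tissues, at lower counts, with means of 2.64 ± 2.25 in E16.5 FP, against 11.8 ± 5.28 in E13.5 MM, and its step lay between E13.5 VM and E16.5 MM (log2 difference 1.40, SE 0.46, adjusted p = 0.0124 by the edgeR test). For Dlx5 and Dlx6, none of the 4 lower tissues was separated from its neighbour, and their means lay between 1.65 and 7.09.

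Markers of neurons moved with the salivary samples. The 18 genes of an autonomic and sensory neuron list summed to 180 to 187 CPM in E13.5 MM. The sums were 94.6 to 203 over the 4 tissues other than E13.5 SM, against 447 to 575 in E13.5 SM. Of the 18, 13 were called lower and 2 higher in E13.5 MM relative to E13.5 SM, with a median log2 fold change of -3.41. In each of E13.5 VM, E16.5 MM and E16.5 FP, 14 of the 18 were called lower than in E13.5 SM. Those called higher numbered 1, 2 and 2, and the medians were -4.10, -4.23 and -3.95. Vip, a neuropeptide of parasympathetic neurons, averaged 1.903 normalized counts in E13.5 MM, against 799.8 in E13.5 SM. None of the 18 was at 0 throughout any tissue. The part of these cells in the Dlx values was not tested. Of the 7 genes of a GABAergic neuron list, Slc32a1, the vesicular GABA transporter, and Sp8 were at 0 in every E13.5 SM sample. Of its 4 tested genes, 1 was called higher in E13.5 MM, Gad2, a GABA-synthesising enzyme (566 normalized counts in E13.5 MM, against 23.8 in E13.5 SM), and 1 lower, Lhx6, a LIM homeobox factor (90.5 in E13.5 MM, against 139 in E13.5 SM). Lhx6 is also on the list of jaw and face patterning factors described below. The GABAergic list summed to 23.3 to 28.8 CPM in E13.5 MM, against 5.47 to 8.25 in E13.5 SM.

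**Figure D3:**
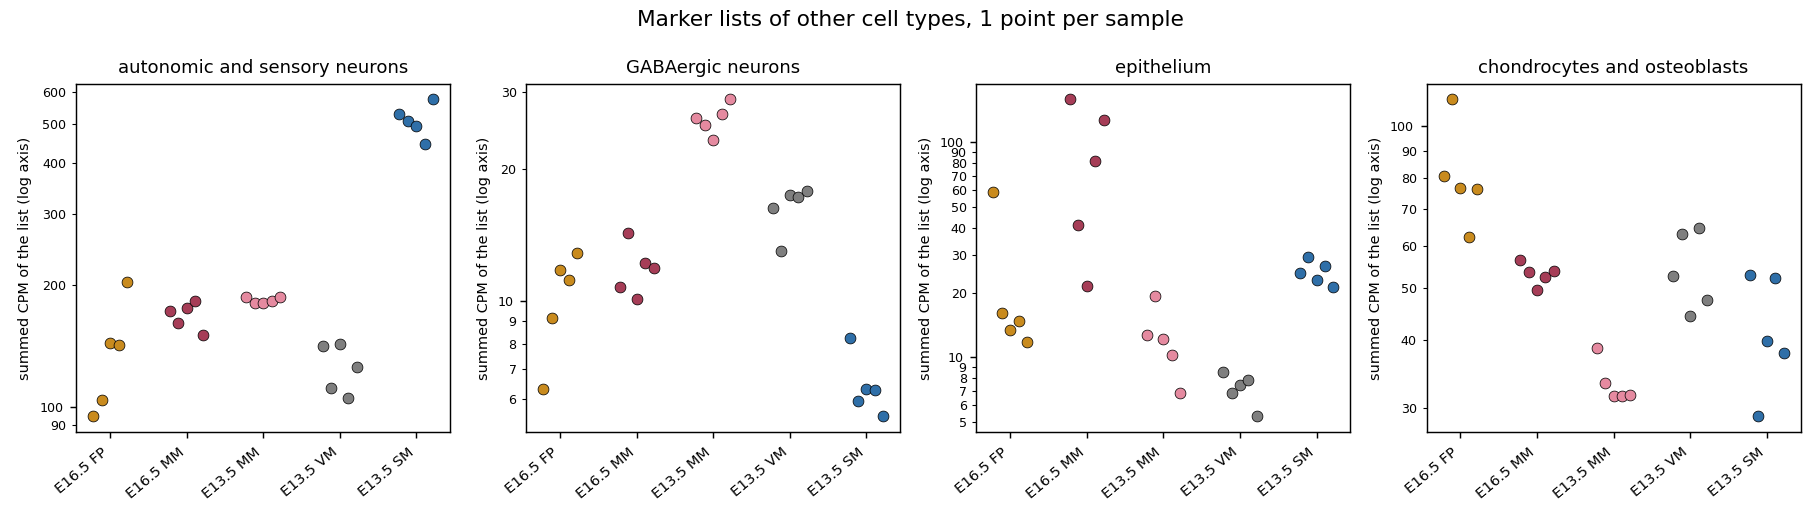
Summed CPM (vertical, log axis) of 4 marker lists in each sample of E16.5 FP, E16.5 MM, E13.5 MM, E13.5 VM and E13.5 SM. The autonomic and sensory neuron list is highest in all 5 E13.5 SM samples (447 to 575), the GABAergic list is highest in E13.5 MM (23.3 to 28.8), and the epithelium list spans 21.4 to 158 in E16.5 MM.

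Other jaw and face patterning factors were called in both directions, more often lower than higher outside the salivary mesenchyme. Of 38 tested members of a list of 40, 18 were called lower and 8 higher in E13.5 MM relative to E13.5 SM, with a median log2 fold change of -0.72 against 0.03 over all genes. E13.5 VM had 18 lower and 7 higher than E13.5 SM, E16.5 MM had 20 lower and 9 higher, and E16.5 FP had 19 lower and 2 higher. Barx1, a homeobox factor of oral mesenchyme, averaged 1.93 normalized counts in E13.5 MM, against 2530 in E13.5 SM (log2 fold change -10.19, SE 0.29). Pitx1, needed for lower jaw and hindlimb, averaged 22.8 in E13.5 MM, against 4031 in E13.5 SM, and Nr2f1, an orphan nuclear receptor of neural crest, averaged 148 in E13.5 MM, against 4852 in E13.5 SM.

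Dlx3 had the opposite pattern, being the leading Dlx gene of the E13.5 mammary mesenchyme. In E13.5 MM it had 98.4, 96.7, 72.2, 101 and 101 normalized counts, against 3.23, 2.08, 4.71, 3.51 and 0.94 in E13.5 VM. All E13.5 MM samples lay more than 10-fold above all E13.5 VM samples and the fold change was 30.6 (log2 fold change 4.94, SE 0.42, adjusted p = 3.285e-09). In this comparison, which looks for what sets mammary apart from other skin mesenchyme, 1 of the 8 genes was called higher and 1 lower, while 6.45% of all tested genes were called, 3.79% higher and 2.66% lower. The median log2 fold change was 0.08 over the 8 genes and -0.01 over all genes. The Dlx3 call ends where the mean over both tissues, rather than that of the higher one, must exceed 50.

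Dlx4, the linked partner of Dlx3, followed it at a lower level. It had 13.6, 37.3, 23.4, 37.6 and 25.6 normalized counts in E13.5 MM, against 1.08, 0, 2.36, 0.876 and 1.88 in E13.5 VM. The groups did not overlap for Dlx3 and Dlx4, 2 of 8 genes where 14.3% of all genes did not, and Dlx4 passed the adjusted p and the fold (log2 fold change 4.30, SE 0.65, adjusted p = 2.527e-05), but its mean of 27.5 in E13.5 MM was under the count minimum. Counting genes that passed adjusted p and fold at any mean count, 3 of 8 passed, where 7.58% of all genes did.

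Against E13.5 SM, where Dlx3 had 8.08, 8.63, 3.85, 6.30 and 18.9 normalized counts, the E13.5 MM level was again higher in every sample (log2 fold change 3.35, SE 0.37, adjusted p = 2.528e-08). E13.5 SM itself was above E13.5 VM for Dlx3 (9.15 ± 5.76 and 2.89 ± 1.44, SD, n = 5 each, adjusted p = 0.00279 by the edgeR test), with both means under the count minimum.

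Dlx3 was no longer high in the mammary mesenchyme 3 days later. It had 21.8, 6.00, 10.8, 19.7 and 19.2 normalized counts in the E16.5 MM samples, all below the lowest E13.5 MM sample, and fell with a log2 fold change of -2.58 (SE 0.36, adjusted p = 1.909e-06). In E16.5 FP it had 12.2, 15.9, 9.40, 9.33 and 16.9, which was lower than E13.5 MM with a log2 fold change of -2.86 (SE 0.36, adjusted p = 2.903e-07). E16.5 FP and E16.5 MM were not separated for Dlx3 (adjusted p = 0.641). Dlx4 was also lower at E16.5, at 10.8 in E16.5 MM, against 27.5 in E13.5 MM, with overlapping groups and both means under the count minimum. Its adjusted p of 0.0357 passed 0.05 by little, and between 0.0573 and 0.0931 was found without any one of 7 libraries, which are replicates 1, 2, 3 and 5 of E16.5 MM and replicates 2, 4 and 5 of E13.5 MM.

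Since Dlx3 is also an epidermal gene, the epithelium list (16 genes, among them Epcam, Cdh1 and Krt14) is given beside it. The list summed to 21.4 to 158 CPM in E16.5 MM. E13.5 MM had 6.83 to 19.3, E13.5 VM 5.31 to 8.56 and E13.5 SM 21.3 to 29.2 CPM. Of its 15 tested genes, none was called between E13.5 MM and E13.5 VM. The lack of calls cannot show equal epithelial content, since several of these genes were under the count minimum of 50. In E13.5 MM, Krt14 averaged 40.58, Krt5 15.55, Krt15 10.95 and Krt17 4.668 normalized counts. Epcam was above the minimum, at 53.57 in E13.5 MM, against 23.48 in E13.5 VM. In E16.5 MM relative to E13.5 MM, where Dlx3 was lower, 10 of the 15 were called higher and none lower. Between E13.5 MM and E13.5 VM the median log2 fold change of the list was 0.42. The part of epithelial cells in the Dlx3 values was not tested.

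From E13.5 to E16.5 the mammary mesenchyme gained Msx1 and Msx2 while Dlx3 fell. Of the 8 genes, 2 were called higher and 1 lower in E16.5 MM relative to E13.5 MM, where 19.8% of all tested genes were called, 12.6% higher and 7.16% lower. Counting genes that passed adjusted p and fold at any mean count, 3 were higher and 4 lower, where 24.3% of all genes passed, 16.2% higher and 8.12% lower. The 4 lower were Dlx1 to Dlx4, and the third higher gene was Dlx5, at means of 6.32 in E16.5 MM, against 1.65 in E13.5 MM.

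Msx2 had 74.6, 101, 107, 84.4 and 124 normalized counts in the E16.5 MM samples, against 43.0, 50.7, 25.4, 18.8 and 16.8 in E13.5 MM. The highest E13.5 MM sample lay below the lowest E16.5 MM sample, and the log2 fold change was 1.67 (SE 0.42, adjusted p = 0.00182). Msx1 had 64.3, 70.8, 99.8, 71.7 and 118 normalized counts in the E16.5 MM samples, against 30.5, 42.1, 40.02, 42.3 and 33.6 in E13.5 MM, again without overlap, as for 4 of the 8 genes and 36.3% of all genes (log2 fold change 1.17, SE 0.28, adjusted p = 0.00141). The general mesenchyme list moved by a like amount, with 8 of 10 genes called higher and none lower in E16.5 MM, a median log2 fold change of 1.23 and sums of 45000 to 50300 CPM in E16.5 MM, against 16900 to 21700 CPM in E13.5 MM. Its part in the Msx values was not tested.

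The widest contrast at E16.5 was Msx2 between the fat pad precursor and the mammary mesenchyme next to it. Its normalized counts were 0, 0, 1.34, 2.07 and 0 in E16.5 FP, against the 74.6 to 124 of E16.5 MM, and the log2 fold change was -6.97 (SE 0.64, adjusted p = 3.576e-09). This call also ends where the mean over both tissues must exceed 50. In raw reads there were 3 Msx2 counts over the 5 E16.5 FP libraries and 434 over those of E16.5 MM, a depth-corrected ratio of E16.5 MM to E16.5 FP of 150.2 with an exact 95% interval of 51.1 to 731 that covers counting error only. Counted the same way, the ratio of E13.5 MM to E16.5 FP was 45.4 (15.3 to 222) and that of E13.5 VM to E16.5 FP was 43.0 (14.4 to 211).

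Msx1 did not share this near absence. It had 50.03, 51.6, 41.7, 40.4 and 41.2 normalized counts in E16.5 FP, all below the lowest E16.5 MM sample (log2 fold change -0.91, SE 0.28, adjusted p = 0.0130). Msx1 and Msx2 were the genes called lower in E16.5 FP, 2 of 8 with none higher, where 14.1% of all genes were called, 6.78% higher and 7.34% lower, and the 2 without overlap, where 22.5% of all genes had none. The median log2 fold change in that comparison was -0.40 over the 8 genes and 0.00 over all genes. Against E13.5 MM, 1 of 8 was called, Dlx3, where 25.5% of all genes were called, 14.3% higher and 11.2% lower, and Msx1 gave a log2 fold change of 0.25 (SE 0.29, adjusted p = 0.473). Msx2 passed the adjusted p and the fold there at a mean under the minimum (log2 fold change -5.30, adjusted p = 1.753e-07), together with Dlx1, Dlx2, Dlx4 and, upward, Dlx5, so that 6 of 8 passed at any mean count, where 30.5% of all genes did.

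Epithelial transcripts were higher in E16.5 MM relative to E16.5 FP, with 7 of 15 tested genes of the list called lower and none higher in E16.5 FP. The sums were 58.9, 16, 13.4, 14.7 and 11.8 CPM in E16.5 FP, against 158, 41.0, 21.4, 81.8 and 127 in E16.5 MM. General mesenchyme genes were lower in E16.5 FP as well, with 7 of 10 called lower and none higher, a median log2 fold change of -0.91 and sums of 24900 to 29900 CPM in E16.5 FP, against 45000 to 50300 CPM in E16.5 MM. The part of either in the Msx values was not tested.

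**Figure D4:**
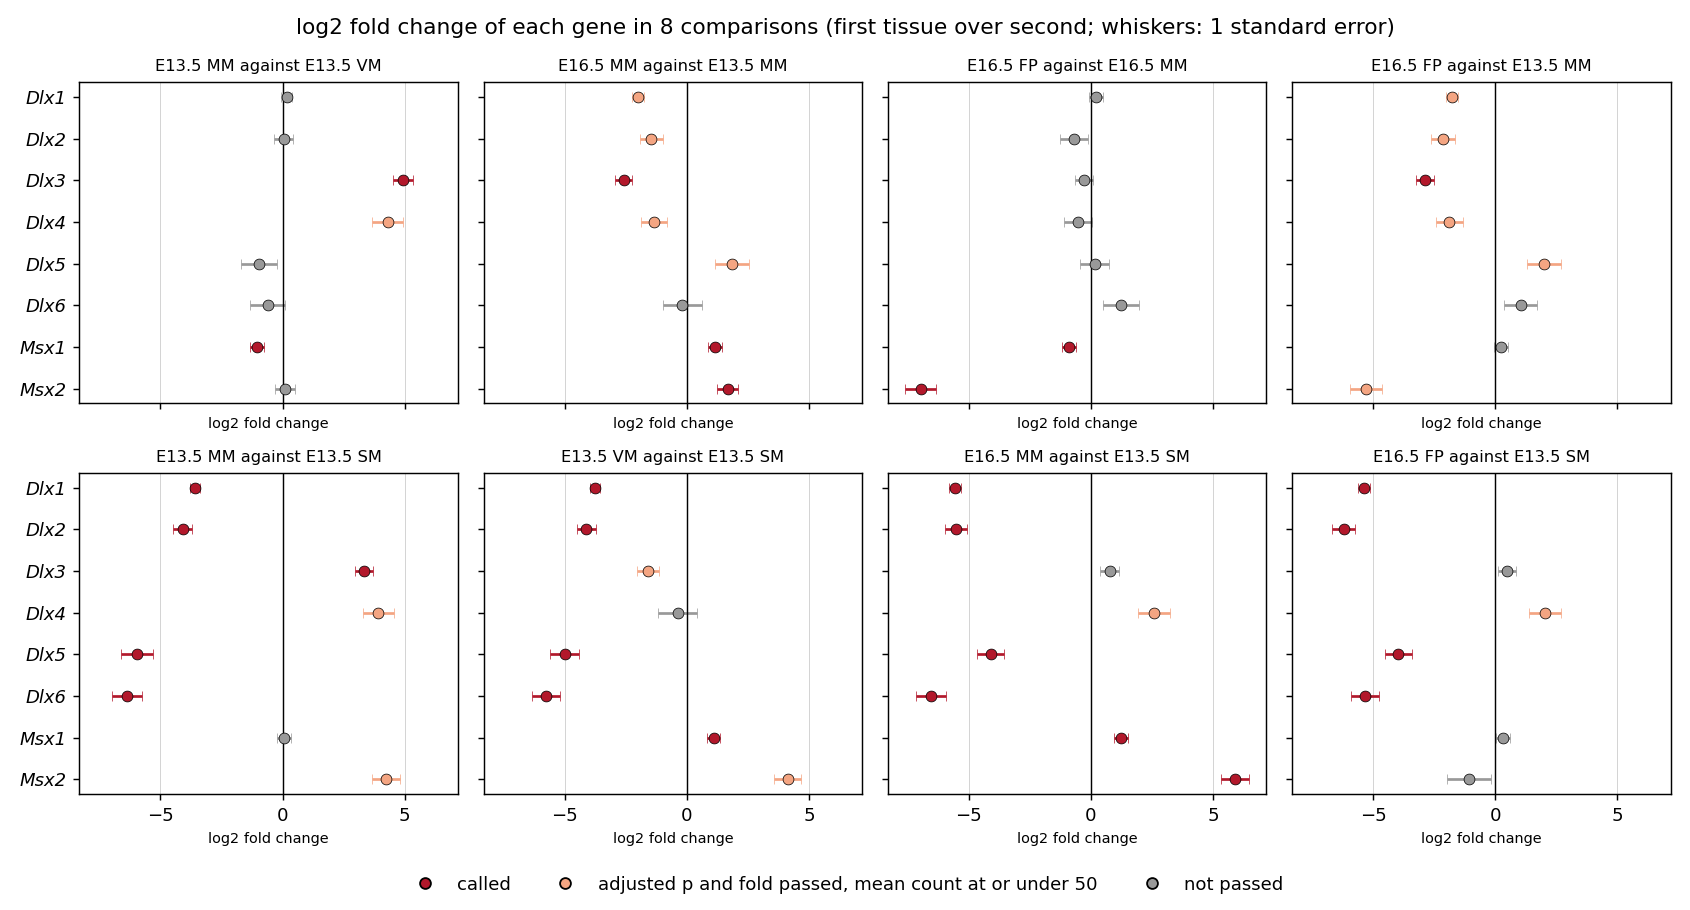
Log2 fold change (horizontal axis, first-named tissue over second) of the 8 genes in 8 comparisons, with whiskers of 1 SE from edgeR. Dark red points were called, light points passed adjusted p and fold at a mean count of 50 or less, and grey points did not pass. Dlx1, Dlx2, Dlx5 and Dlx6 lie left of 0 in all 4 comparisons with E13.5 SM, and Msx2 reaches -6.97 in E16.5 FP against E16.5 MM.

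At E13.5, Msx2 did not separate mammary from ventral skin mesenchyme. It had 32.3, 30.1, 23.6, 35.9 and 20.7 normalized counts in E13.5 VM, within the range of E13.5 MM, and the log2 fold change of E13.5 MM over E13.5 VM was 0.11 (SE 0.42, adjusted p = 0.918). In E13.5 SM it was nearly undetected, at 1.80, 0, 0.963, 0 and 4.97, or 8 counts in 5 libraries. Every other tissue except E16.5 FP was above E13.5 SM, with log2 fold changes of 5.91 (E16.5 MM), 4.24 (E13.5 MM) and 4.12 (E13.5 VM; adjusted p = 1.461e-09, 4.843e-07 and 7.198e-07 by the edgeR test), of which that in E16.5 MM passed the count minimum (not with the mean over both tissues). E13.5 SM and E16.5 FP were not separated (adjusted p = 0.288).

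Msx1 was the family member with the most even levels, its means spanning 36.0 in E13.5 SM to 84.9 in E16.5 MM. In E13.5 VM its samples were scattered, at 81.8, 137, 48.7, 82.4 and 37.6 normalized counts, and the lower end overlapped the 30.5 to 42.3 of E13.5 MM. Msx1 was called lower in E13.5 MM relative to E13.5 VM (log2 fold change -1.03, SE 0.28, adjusted p = 0.0120), but without E13.5 VM replicate 2 the log2 fold change was -0.72 and the adjusted p 0.0714. It was called higher than in E13.5 SM in E16.5 MM (log2 fold change 1.23, SE 0.28, adjusted p = 5.002e-04) and in E13.5 VM (1.10, SE 0.28, adjusted p = 0.00165), while E13.5 MM and E13.5 SM gave a log2 fold change of 0.07 (SE 0.29, adjusted p = 0.857). Msx3, the third mouse Msx gene, averaged 3.69 normalized counts or fewer in each tissue.

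The ratio of partners within a sample is free of depth, and its difference between tissues is also free of gene length, whereas its level is not. Over the 5 libraries of each tissue, the Msx1 to Msx2 ratio of summed counts was 68.7 for E16.5 FP, 0.869 for E16.5 MM, 1.27 for E13.5 MM, 2.66 for E13.5 VM and 24.1 for E13.5 SM. Only this pair had at least 10 counts of both genes in every sample of a comparison, and only in 2 of the 8 comparisons. The mean log2 ratio of Msx1 to Msx2 was 0.41 ± 0.75 in E13.5 MM, against 1.33 ± 0.51 in E13.5 VM (SD, n = 5 each), which did not pass an exact two-sided permutation test after adjustment over the 2 tests (difference -0.91, p = 0.0476, adjusted p = 0.0952). It was -0.23 ± 0.17 in E16.5 MM, against 0.41 ± 0.75 in E13.5 MM (difference -0.64, exact permutation p = 0.151, adjusted p = 0.151). The smallest p that 5 samples against 5 can give is 0.00794. Of the linked pairs, the Dlx1 to Dlx2 count ratio lay between 2.53 and 4.75 in all 5 tissues, the latter on 12 Dlx2 counts in E16.5 FP. Dlx4 to Dlx3 lay between 0.188 (E13.5 SM) and 0.681 (E16.5 MM). Dlx5 to Dlx6 ran from 0.4929 in E13.5 SM to 2.80 in E16.5 MM, where it rests on 28 and 10 counts.

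The levels of linked partners were correlated across the tissues, and correlation within a tissue was not computed. Over the 25 samples, Pearson's correlation of log2 CPM was 0.942 for Dlx1 and Dlx2, 0.927 for Dlx5 and Dlx6, 0.8 for Dlx3 and Dlx4, and 0.555 for Msx1 and Msx2. Without the 5 E13.5 SM samples the values were 0.669, 0.488, 0.881 and 0.477. Samples of one tissue stand close together, so these figures mostly describe 5 tissues.

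Among 13641 to 13642 genes with a mean above 100 in some tissue, the genes most like each member over the 25 samples were then listed, as a description that shares the same limit. For Dlx1 they were Tubb3, a neuronal tubulin (Pearson's r = 0.983), Elavl4, a neuronal RNA-binding protein (0.975), and Kazn (0.975). For Dlx2 they were Scap (0.968), L1cam, a neural adhesion molecule (0.965), and Elavl4 (0.964). Dlx5 was most like Brsk2 (0.966), Pclo (0.958) and Adtrp (0.953), and Dlx6 most like Olfm3 (0.973), Stmn3 (0.969) and Vip (0.963). Dlx3 was most like A2m, a protease inhibitor (0.891), Dpysl3 (0.884) and Sorcs3 (0.883), and Dlx4 most like Tll1, a tolloid protease (0.856), and Gbp6 (0.852).

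Msx1 had lower likeness values, with Rftn2 (0.820), Rerg (0.819) and Fosl2 (0.804) in front. Thy1 (0.945) and Cacna2d3 (0.941) were among the 3 genes most like Msx2.

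The BMP pathway, which induces Msx genes, was described with a list of 23 genes. Between E16.5 MM and E13.5 MM, 5 were called higher and 3 lower in E16.5 MM, with a median log2 fold change of 0.03 against 0.01 over all genes. Grem1, a secreted BMP antagonist, fell to 318 normalized counts in E16.5 MM, against 3685 in E13.5 MM (log2 fold change -3.54, SE 0.28, adjusted p = 6.842e-10), and the ligand Bmp4 fell to 159, against 1092 (log2 fold change -2.78, SE 0.20, adjusted p = 7.298e-11). Chrdl1, another antagonist, rose to 726 in E16.5 MM, against 99.7 in E13.5 MM.

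In E16.5 FP, 9 of the 23 BMP genes were called lower and 4 higher than in E16.5 MM, with a median log2 fold change of -0.47 against 0.00 over all genes. The ligand Bmp2 averaged 71.3 normalized counts in E16.5 FP, against 490.2 in E16.5 MM (log2 fold change -2.77, SE 0.15, adjusted p = 2.834e-13), and Id4, an inhibitor of basic helix-loop-helix factors, averaged 242 in E16.5 FP, against 1193 in E16.5 MM. Between E13.5 MM and E13.5 VM, 6 were called higher and 4 lower in E13.5 MM, with Id4 at 645 in E13.5 MM, against 125 in E13.5 VM, and Bmp5 at 209 in E13.5 MM, against 834 in E13.5 VM. Against E13.5 SM, E13.5 MM had 11 higher and 5 lower, E13.5 VM and E16.5 MM each had 9 higher and 6 lower, and E16.5 FP had 4 higher and 7 lower. Grem1 averaged 3685 in E13.5 MM, against 26.9 in E13.5 SM.

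A list of 16 genes of mammary mesenchyme identity is given for the setting in which Msx2 was high. In E16.5 FP, 12 were called lower and 1 higher than in E16.5 MM, with a median log2 fold change of -1.74, among them Esr1, the estrogen receptor (log2 fold change -4.65, SE 0.26), and Lef1, a transcriptional effector of Wnt signaling (-4.07, SE 0.19). Between E13.5 MM and E13.5 VM, where Dlx3 and Dlx4 were higher and Msx2 gave no call, 8 were called higher and 2 lower in E13.5 MM. Tbx3, a T-box factor needed for mammary placodes, averaged 1837 normalized counts in E13.5 MM, against 692 in E13.5 VM. Between E16.5 MM and E13.5 MM, 7 were called higher and 5 lower in E16.5 MM, with Esr1 at 3934 in E16.5 MM, against 772 in E13.5 MM.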

How the data were processed

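RNA-Seq was performed on 25 samples of 5 tissues, 5 each. As deposited by the authors, the table holds raw counts per Ensembl gene. The authors checked reads with FastQC 0.11.8, summarised by MultiQC 1.9, cut adapters with Trimmomatic 0.39, removed ribosomal RNA with SortMeRNA and quantified them with Salmon 0.99.0 on mm10. The annotation release and any use of strand are not given in the sources used here. They list DESeq2 3.15 for their own comparisons, which were not used here. Salmon assigns reads to transcripts by estimate, so reads of sequence shared between genes may be split.

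Symbols came from GENCODE M21, which matched 35505 of 35880 IDs, and 0.0805% of counts had no symbol. Genes passing filterByExpr (17657) were fitted with edgeR 4.0.16 (R 4.3.3) by glmQLFit (robust) on all 25 samples with 1 mean per tissue. TMM factors were used, and the fit had 20 residual degrees of freedom and a common dispersion of 0.0433. The test also uses a quasi-likelihood dispersion for each gene, so precision differs between genes. Depth was 20678150 to 34448304 counts. The p, fold and count thresholds were those of the study's methods, whose average count was read here as the mean of the higher tissue. SE was taken from the size of the fold change and F. Log2 CPM used a prior count of 2. Ratios of partners were compared by exact permutation. The script was tested on simulated counts. Alternatives were DESeq2 1.42.0, other size factors, no filter, fits of 2 tissues, a replicate block, the mean over both tissues and leaving out each library.

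The members and all lists were chosen with earlier results of these data known. The text names all 8 members, Msx3, up to 4 called genes of a list per comparison by size of change and the 3 genes most like each member, of which some are not reported here.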

Additional observations from a re-analysis of the deposited data

Results flagged for a closer look

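Within the 40 sets of 5 samples (8 genes in 5 tissues), 3 had a sample far from the other 4, where the criterion used (a gap over 0.71 of the range) takes about 1 in 20 by chance. Dlx2 in E13.5 SM replicate 4 was at 301.5 normalized counts, with the other 4 between 160.8 and 193.9. Dlx3 in E13.5 MM replicate 3 was at 72.2, with the others between 96.7 and 101.1. Dlx4 in E16.5 MM replicate 4 was at 24.3, with the others between 6.89 and 8.42. Leaving out any of these samples changed no call of its gene in the 8 comparisons.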

How the results depend on the processing

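Over the 8 comparisons 28 of 64 member tests were called, and 28 were called with DESeq2, with DESeq2-type size factors, with no filter, in fits of the 2 tissues compared (46 tests could be made) and with the replicate block. Requiring the mean over both tissues to exceed 50 gave 25, with 1 call each in E13.5 MM against E13.5 VM (Dlx3 lost) and E16.5 FP against E16.5 MM (Msx2 lost), and Msx2 lost in E16.5 MM against E13.5 SM. No pairing by replicate number was seen over all pairs of tissues together. Pairs of an E13.5 with an E16.5 tissue are among them and cannot share embryos, and pairing within a stage was not tested separately. The deviations of same-numbered samples correlated at -0.374 to 0.289 (median 0.0166, over 0.1 in 11 of 50 pairs), and 18 of 100 samples and tissues had their own number as best match. With the replicate block, calls per comparison were 2, 5, 5, 3, 2, 1, 6 and 4 and 13 neighbour pairs were apart, as without it, and calls over all genes were 35434 with it and 35461 without it.

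When each library was left out in turn, the count of members called in E13.5 MM against E13.5 VM ranged from 1 to 2 (1 without E13.5 VM replicate 2, Msx1 -0.72), those of the other comparisons did not move, neighbour pairs apart ranged from 12 to 14 and ratio tests passed stayed at 0. The direction turned only in uncalled values, whose log2 fold changes then ranged from -0.21 to 0.21 in Dlx2 and from -0.13 to 0.28 in Msx2 (both E13.5 MM against E13.5 VM), from -0.087 to 0.19 in Msx1 (E13.5 MM against salivary mesenchyme), for E13.5 VM against E13.5 SM from -0.73 to 0.11 in Dlx4, for E16.5 MM against E13.5 MM from -1.11 to 0.15 in Dlx6, and for E16.5 FP against E16.5 MM from -0.16 to 0.71 in Dlx5. Msx1 in E13.5 VM and E16.5 FP (adjusted p = 0.0213) were no longer apart in the fit of those 2 tissues (0.0597), without E16.5 FP replicate 4 (0.0523) or without E13.5 VM replicate 2 (0.1496), and Dlx4 in E13.5 MM and E16.5 MM no longer without the filter (0.0651). Another 2 pairs were apart only without 1 library, Dlx5 in E16.5 MM and E13.5 VM (0.0443) and Dlx3 in E16.5 FP and E13.5 SM (0.0317). Causes were not tested. With Spearman's correlation, 0 or 1 of the 3 genes most like Dlx1, Dlx2, Dlx5, Dlx6, Msx1 and Msx2 were named again. A minimum of 20 counts left no ratio to test. Means under about 10 counts per library, as for Dlx5 and Dlx6 outside E13.5 SM, limit what can be told apart at this depth.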
